A study of Homo sapiens with 2 samples.

Results

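TXNIP, the other alpha-arrestin genes ARRDC1, ARRDC2, ARRDC3, ARRDC4 and ARRDC5, and the glucose-sensing transcription factor genes MLXIP, MLXIPL and MLX were examined in C4-2B cells, a human castration-resistant prostate cancer (CRPC) cell line. These 9 genes were selected by symbol from the 60671 genes of the deposited count table, and all 9 were listed there. The set was chosen with the ratio of TXNIP between these same libraries already known, so the values below describe the genes and are not a test of them. A vehicle-treated culture was compared with a culture treated overnight with 1 µM (R)-9b, a small-molecule inhibitor of the tyrosine kinase ACK1, and 1 RNA sequencing library was made per condition from poly-A selected RNA of the same line.

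Because there was 1 library per condition, the spread between cultures could not be estimated and no p-value is given for any gene. Each value below is a ratio of the (R)-9b library to the vehicle library, and its 95% interval (exact Clopper-Pearson) covers counting error only. A difference therefore holds between these 2 libraries, and a difference between the treatments cannot be told apart from a difference between 2 cultures.

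Alpha-arrestins are adaptor proteins with an arrestin fold that bring NEDD4-family ubiquitin ligases to membrane proteins. TXNIP, the best known member, binds thioredoxin and promotes the removal of the glucose transporters GLUT1 and GLUT4 from the cell surface, and ARRDC4 shares the effect on glucose uptake. MLXIP encodes MondoA and MLXIPL encodes ChREBP. Both proteins respond to glucose 6-phosphate, pair with MLX and bind carbohydrate response elements, which are pairs of E-box-like elements in the promoters of genes such as TXNIP and ARRDC4.

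The promoters of TXNIP, ARRDC4 and MLX are shown first. In each of them the E-box CACGTG or a variant of it lies upstream of the start site. The promoter of ARRDC2, which also holds a variant upstream of a start site, is not printed. RefSeq windows of the GRCh38.p14 assembly, from 250 bases before to 50 bases after a start site, were found for 8 of the 9 genes, in 11 windows. The E-box CACGTG and its variants CACGAG and CACGCG were searched on both strands, together with any 2 of these 6-base elements spaced by 5 bases, and the CCAAT box, which was added after the sequences had been seen. The stretches below run 5′ to 3′ on the strand of the gene and end before the annotated start, with each E-box form and each CCAAT box, on either strand, in capitals.
TXNIP, chr1:145996602-145996729, minus strand: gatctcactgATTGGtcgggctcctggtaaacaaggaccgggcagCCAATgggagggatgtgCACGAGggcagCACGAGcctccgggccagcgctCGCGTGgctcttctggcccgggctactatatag
ARRDC4, chr15:97960453-97960672, plus strand: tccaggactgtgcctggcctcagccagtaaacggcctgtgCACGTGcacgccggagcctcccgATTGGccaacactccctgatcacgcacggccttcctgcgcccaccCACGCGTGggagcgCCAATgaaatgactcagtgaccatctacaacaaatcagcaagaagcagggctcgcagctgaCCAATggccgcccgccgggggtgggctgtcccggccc
MLX, chr17:42567000-42567067, plus strand: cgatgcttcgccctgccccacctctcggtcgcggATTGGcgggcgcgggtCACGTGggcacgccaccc

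At its upstream start site the TXNIP promoter held 2 copies of CACGAG, at -88 to -83 and at -77 to -72, separated by 5 bases. A pair of any 2 of the forms searched, spaced by 5 bases, lay in 16 of the 35116 promoter windows (0.0456%), and no other member had one. Only exact matches at that spacing were searched, so response elements with other letters would be missed, in ARRDC4 as in any gene. The same TXNIP window also held 2 copies of the CACGCG form, one of them at -55 to -50, and CCAAT boxes at -140 and -105. The window of the downstream TXNIP start site held none of the elements searched. The ARRDC4 promoter held CACGTG at -210 to -205, a palindromic stretch at -142 to -135 that counts as 2 overlapping matches of CACGCG, and 3 CCAAT boxes. The MLX promoter held CACGTG at -50 to -45 and 1 CCAAT box. ARRDC2 held 2 copies of the CACGCG form at its first start site, whereas none of the E-box forms occurred in the windows of ARRDC1, ARRDC3, MLXIP and MLXIPL. Of all windows, 7.26% held CACGTG, 6.78% held CACGAG, 11.4% held CACGCG and 34.6% held CCAAT. These are matches of letters in a window, and no binding was measured here.

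The gene with the largest difference among the members was TXNIP (ENSG00000265972, GRCh38 chromosome 1, 145992435 to 145996600, minus strand). It was counted 147 times in vehicle-treated cells and 3188 times after (R)-9b. After scaling of the library totals with the TMM method of edgeR, these were 2.21 and 56.5 CPM (counts scaled to a common library size), a ratio of 25.6 (21.7 to 30.4), or 4.68 (4.44 to 4.93) on the log2 scale. Low counts were mostly even in both libraries (72.2% and 70.3% of genes with 1 to 20 counts), so the mates of a read pair may have been counted separately. With the counts divided by 2 the log2 interval of TXNIP was 4.34 to 5.03. Ratios were compared for the 23446 genes whose counts in the 2 libraries summed to 10 or more. By the interval bound closer to 0, TXNIP ranked 14 from the top among them, and 10 among protein-coding genes.

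ARRDC4 (ENSG00000140450, chromosome 15, 97960698 to 97973838, plus strand), like TXNIP a gene induced by glucose, was the other member whose whole interval lay above a ratio of 2. Its counts were 327 in vehicle and 683 in (R)-9b, or 4.91 and 12.1 CPM. The ratio was 2.46 (2.16 to 2.82), a log2 ratio of 1.30 (1.11 to 1.49), which ranked 853 among all genes compared. With counts divided by 2 its log2 interval, 1.03 to 1.58, still lay above 1.

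ARRDC1 and ARRDC2 showed smaller differences. ARRDC1 (ENSG00000197070, chromosome 9, 137605654 to 137615360), an adaptor at the plasma membrane that takes part in the budding of extracellular vesicles, had 3815 counts in vehicle and 4881 in (R)-9b. These were 57.3 and 86.4 CPM, a log2 ratio of 0.59 (0.53 to 0.65). ARRDC2 (ENSG00000105643, chromosome 19, 18001132 to 18014102) had 751 and 939 counts, or 11.3 and 16.6 CPM, a log2 ratio of 0.56 (0.42 to 0.70). Both were higher in the (R)-9b library, by a ratio of about 1.5.

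ARRDC3 (ENSG00000113369, chromosome 5, 91368724 to 91383359), an adaptor of beta-adrenergic receptor and integrin ubiquitination, was at nearly the same level in the 2 libraries. Its 2565 and 2180 counts corresponded to 38.5 and 38.6 CPM. The log2 ratio was 0.0032 with an interval of -0.08 to 0.09, or 0.946 to 1.06 as a ratio. ARRDC5 (ENSG00000205784, chromosome 19, 4890437 to 4902867) had 0 counts in both libraries, which allows up to 0.0451 and 0.0531 CPM, the levels of 3 counts in each.

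The genes of the sensors moved less than TXNIP and ARRDC4. MLXIP (MondoA; ENSG00000175727, chromosome 12, 122078722 to 122147347) had 10772 and 11299 counts, or 162 and 200 CPM, a log2 ratio of 0.31 (0.27 to 0.34). MLXIPL (ChREBP; ENSG00000009950, chromosome 7, 73593194 to 73624543) had 135 and 173 counts, or 2.03 and 3.06 CPM, and its log2 ratio of 0.60 had the widest interval of the members, 0.26 to 0.93. MLX (ENSG00000108788, chromosome 17, 42567068 to 42573239), the common partner of both, had 6741 and 6364 counts, or 101 and 113 CPM, a log2 ratio of 0.15 (0.11 to 0.20). MLXIP was thus the abundant sensor in these cells, and MLXIPL was low in both libraries.

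**Figure D1:**
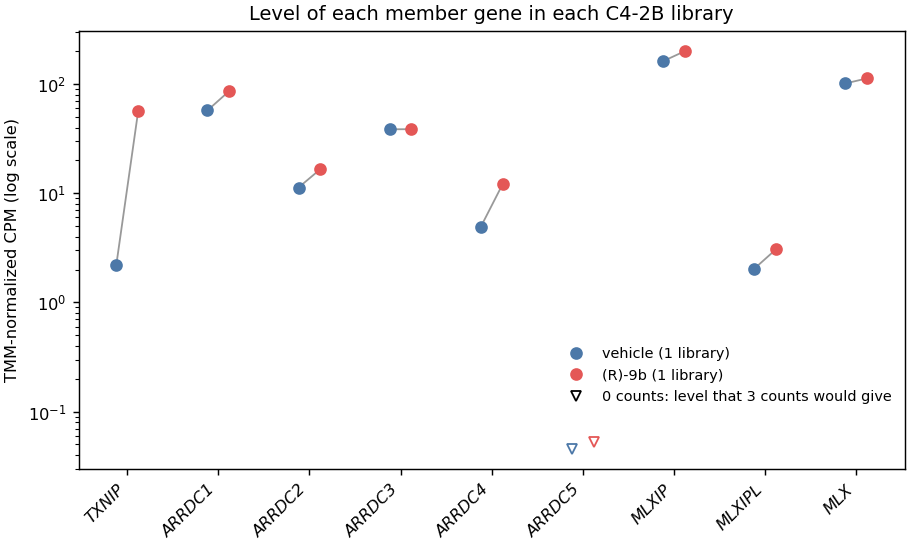
Level of each of the 9 member genes in the vehicle and the (R)-9b library, in TMM-normalized CPM on a log axis, with 1 point per library and a line joining the 2 libraries. TXNIP goes from 2.21 to 56.5 CPM and ARRDC4 from 4.91 to 12.1 CPM, ARRDC3 is level, and the open triangles of ARRDC5 mark the level that 3 counts would give.

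Of the 8 members with at least 10 counts, 7 had an interval above 0 and 0 had an interval below 0. Over all genes compared, 29.8% had an interval above 0 and 31.1% below 0. The members whose whole interval lay above a ratio of 2 were 2, TXNIP and ARRDC4, and 4.2% of all genes did so. No member lay below a ratio of 0.5, as 3.44% of all genes did. The median log2 ratio was 0.58 over the members and -0.0049 over all genes compared. The members were chosen by their symbols with these ratios known, so these counts and this median are a description only.

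The intervals were widened by an assumed coefficient of variation between cultures, since none could be measured. With 0.1 the log2 interval was 4.21 to 5.15 for TXNIP and 0.86 to 1.75 for ARRDC4, and those of ARRDC1, ARRDC2 and MLXIPL also stayed above 0, whereas those of MLXIP and MLX included 0. With 0.3 only TXNIP, at 3.45 to 5.90, and ARRDC4, at 0.085 to 2.52, stayed above 0.

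**Figure D2:**
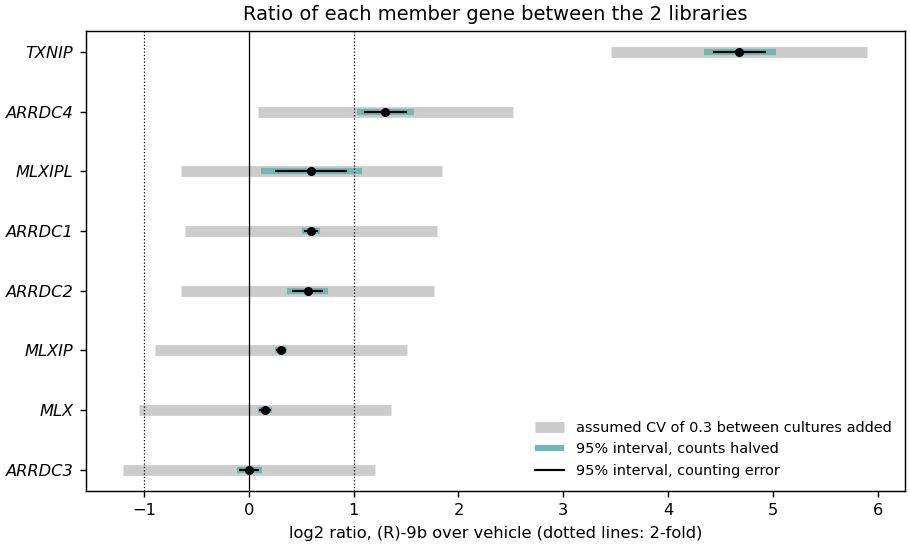
Log2 ratio of (R)-9b over vehicle for the 8 members with counts (points), with the 95% counting interval (black), the interval with counts divided by 2 (green) and the interval with an assumed coefficient of variation of 0.3 added (grey). The grey bar of TXNIP lies wholly beyond a ratio of 2, that of ARRDC4 starts at 0.085, and the other 6 cross 0.

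Across the whole table, mitochondrially encoded genes held 1.49% of the 65207444 counts of the vehicle library and 9.54% of the 57653965 counts of the (R)-9b library. Scaling by total counts in place of TMM lowered each log2 ratio by 0.060, which turned the sign of ARRDC3 to -0.057 and of no other member. The sample label gives the cell type as breast cancer. The 9 prostate markers found were all detected, with summed levels of 4854 and 9819 CPM, whereas 6 breast markers summed to 1.26 and 0.744 CPM, with SCGB2A2 and ANKRD30A at 0. Of 8 immune and stromal markers, which summed to 16.9 and 35.9 CPM, PTPRC was at 0 and COL1A1 made up nearly all of the sum, with 1114 and 2004 counts. The part of these shifts in the ratios of the members was not tested.

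Levels of different genes were compared as RPKM, the CPM per kilobase of annotated exons. In the vehicle library the order was MLX at 23.8 RPKM, ARRDC1 at 15.0, MLXIP at 11.6, ARRDC3 at 7.81, ARRDC2 at 2.43, ARRDC4 at 1.21, TXNIP at 0.609 and MLXIPL at 0.421 RPKM. All RPKM intervals given here are the wider ones with counts divided by 2. On that setting those of TXNIP and MLXIPL overlapped in the vehicle library (0.478 to 0.765 and 0.327 to 0.534 RPKM). In the (R)-9b library TXNIP stood 3 in this order, at 15.6 RPKM (14.8 to 16.4), next to MLXIP at 14.4 RPKM (14.0 to 14.8). With counts divided by 2, the intervals of ARRDC2 at 3.59 RPKM and ARRDC4 at 2.97 RPKM overlapped there. TXNIP thus went from position 7 to position 3 among the members by this measure, and the order of the others did not change. The lengths count every annotated exon, 3625 bases for TXNIP and 13905 for MLXIP, and the order can depend on that choice.

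Summed over the alpha-arrestins, the level was 27.1 RPKM in vehicle and 52.6 RPKM in (R)-9b, a ratio of 1.94. TXNIP made up 2.25% of this sum in vehicle and 29.6% in (R)-9b. ARRDC1 remained the most abundant alpha-arrestin, with 55.4% and 43.0% of the sum, and ARRDC3 went from 28.9% to 14.9%. MLXIP, MLXIPL and MLX together summed to 35.8 and 41.5 RPKM, of which MLX held 66.3% and 63.8%.

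The transcript table, which holds estimated counts per annotated transcript, showed which isoforms carried these values. TXNIP-204, a protein-coding isoform, had an estimated 61 counts in vehicle and 1078 in (R)-9b, a log2 ratio of 4.42 (4.04 to 4.81). It held 100% of the TXNIP estimate in vehicle and 93.0% in (R)-9b. The other 3 TXNIP transcripts were at 0 in vehicle. In (R)-9b, the protein-coding TXNIP-201 had 24.2 estimated counts, and its log2 interval started at 2.86. The retained-intron forms TXNIP-202 and TXNIP-203 had 26.9 and 29.6 estimated counts, with log2 intervals that started at 3.05 and 3.21. Together these retained-intron forms made up 4.88% of the TXNIP estimate in (R)-9b, against 4.96% over all transcripts of that library.

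ARRDC4 had a single annotated transcript, ARRDC4-201, with an estimated 127 and 254 counts and a log2 ratio of 1.27 (0.96 to 1.59), close to that of the gene. ARRDC2 was carried by the protein-coding ARRDC2-201 and ARRDC2-202, whose log2 ratios were 0.59 (0.22 to 0.96) and 0.81 (0.53 to 1.10). ARRDC3-201 held 98.3% and 97.1% of the ARRDC3 estimate, at a log2 ratio of 0.06 (-0.07 to 0.20). MLXIPL-201 had 38.0 and 52.8 estimated counts, a log2 ratio of 0.75 (0.13 to 1.39).

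ARRDC1 was divided among more forms. The protein-coding ARRDC1-201 had 1299 and 1396 estimated counts, a log2 ratio of 0.38 (0.27 to 0.49). Larger ratios were seen for ARRDC1-204, a nonsense-mediated decay form, at 3.08 (2.20 to 4.09) with 12.2 and 84.0 estimated counts, and for the processed transcripts ARRDC1-210 at 1.17 (0.89 to 1.44) and ARRDC1-212 at 0.98 (0.71 to 1.26), as well as for ARRDC1-207 at 3.73 (2.06 to 6.08) with 2.79 and 33.1 estimated counts. The processed transcript ARRDC1-206 had 0 and 24.0 estimated counts. Other processed transcripts went the other way, with ARRDC1-211 at -0.68 (-1.35 to -0.03), and the intervals of ARRDC1-208, at -0.56, and ARRDC1-209, at -0.19, included 0. Protein-coding forms made up 73.5% of the ARRDC1 estimate in vehicle and 64.6% in (R)-9b, while over all transcripts of the table they made up 88.8% and 88.4%.

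MLX-203, the main protein-coding form of MLX, had 2444 and 2294 estimated counts, a log2 ratio of 0.18 (0.10 to 0.27). The protein-coding MLX-202 had 197 estimated counts in vehicle and 0 in (R)-9b, with a log2 interval that ended at -5.45. Retained-intron forms of MLX made up 3.72% of its estimate in vehicle (109 counts) and 8.04% in (R)-9b (219 counts), with MLX-207 at a log2 ratio of 1.30 (0.83 to 1.78). Over all transcripts the retained-intron share was 4.13% and 4.96%. Reads shared by isoforms are divided by estimation, and the intervals do not include that uncertainty. For MLXIP the transcripts listed under its identifier summed to 508 and 514 estimated counts, of which the retained-intron MLXIP-209 held 403 and 389. The gene table gave more than 20 times as many counts. A further MLXIP transcript is filed under another gene identifier and was not used, so the isoforms of MLXIP are not described further.

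**Figure D3:**
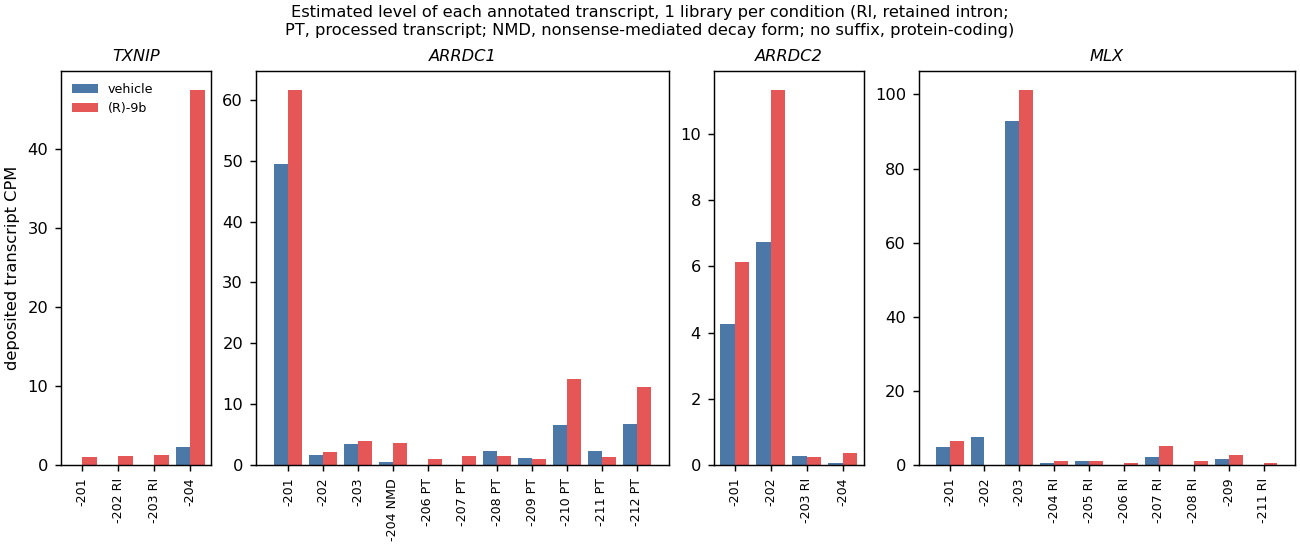
Deposited CPM of each transcript of TXNIP, ARRDC1, ARRDC2 and MLX with at least 10 estimated counts over both libraries, as bars from 0 for the vehicle and the (R)-9b library. TXNIP-204 carries nearly all of the TXNIP difference, ARRDC1-204, ARRDC1-210 and ARRDC1-212 are higher in (R)-9b, and MLX-202 has no bar there.

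Only unambiguous reads were counted, so reads in bases shared with another annotated gene could be missing from the counts of a member. Whether they are depends on the strand setting of the counting, which is not given in the sources used here. MLX shares 770 exonic bases, 18.1% of its exons, with PSMC3IP on the opposite strand, which had 637 and 662 counts. MLXP1, a pseudogene copy of MLX, had 21 and 6 counts. ARRDC1 shares 29 bases with its antisense RNA gene ARRDC1-AS1, which had 773 and 948 counts and a log2 ratio of 0.53 (0.39 to 0.67). ARRDC3 shares 145 bases with ARRDC3-AS1, at 120 and 83 counts and a log2 ratio of -0.29 (-0.72 to 0.12). No gene was annotated over the exons of TXNIP or ARRDC4.

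The 5 protein-coding genes with a log2 ratio nearest that of TXNIP, out of 12379 others with at least 100 counts, were SHANK1 at 4.49, CYP1A1 at 4.88, B3GALT5 at 5.20, CYP1A2 at 5.23 and HLA-DRA at 5.28. The likeness is one of ratio over 2 libraries and nothing more. CYP1A1, a cytochrome P450 enzyme, had 350 and 8718 counts, and HLA-DRA, an MHC class II chain, had 4 and 132 counts. Of the 12379 genes, 8 had a higher ratio than TXNIP.

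**Figure D4:**
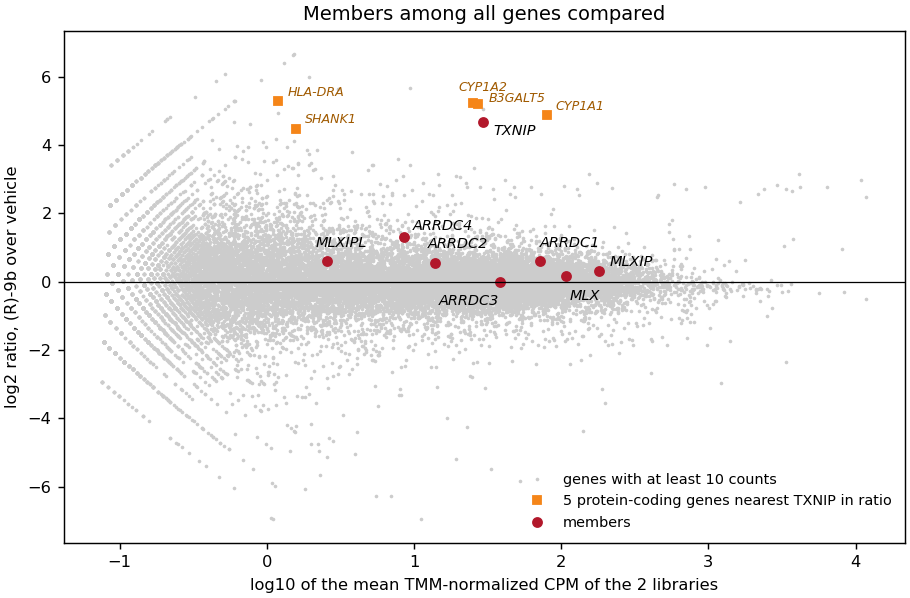
Log2 ratio of (R)-9b over vehicle against the log10 of the mean CPM of the 2 libraries for genes with a sum of at least 10 counts and counts in each library (grey), the 8 members with counts (red) and the 5 genes nearest TXNIP in ratio (orange). TXNIP lies at 4.68, above nearly all genes of a similar level, ARRDC4 lies at 1.30 in the upper part of the grey band, and the other members lie inside it.

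The genes around the family were counted in lists by role, with the share called over all genes, 29.8% above 0 and 31.1% below 0, as the background. Of 13 glucose transporter genes compared, 5 had an interval above 0, 5 below 0 and 3 included 0, with a median log2 ratio of 0.05. SLC2A1, which encodes GLUT1, the transporter that TXNIP binds, had 16368 counts in vehicle and 7435 in (R)-9b, a log2 ratio of -0.90 (-0.94 to -0.86). SLC2A5, the fructose transporter, had 40 and 7 counts and a log2 ratio of -2.28 (-3.68 to -1.10). SLC2A6, a lysosomal transporter, was higher, with 1386 and 3034 counts and a log2 ratio of 1.37 (1.28 to 1.46), as was SLC2A11 at 0.49 (0.36 to 0.61). SLC2A3, which encodes GLUT3, had 56 and 69 counts and a log2 ratio of 0.54 (0.01 to 1.07).

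A further list held genes for enzymes at or near glucose 6-phosphate, the ligand of the sensors, and the regulatory protein gene GCKR. It divided in the same way, with 6 of 11 above 0, 5 below 0 and a median of 0.09. HK2, an inducible hexokinase, had 15422 and 5481 counts, a log2 ratio of -1.25 (-1.30 to -1.21), while HK1, which catalyses the same step, had 17884 and 17796 counts and 0.23 (0.20 to 0.26). HKDC1, another hexokinase, had 89 counts in vehicle and 2 in (R)-9b, a log2 ratio of -5.24 (-8.31 to -3.34). GCKR, which encodes the glucokinase regulatory protein, had 7 and 20 counts and stood at 1.75 (0.45 to 3.24). HK1 was named after its values had been seen. With counts divided by 2 the intervals of SLC2A3 and GCKR included 0.

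Known targets of ChREBP and MondoA outside the family were as divided, with 7 of 14 above 0, 6 below 0, 1 including 0 and a median of 0.17. The lipogenic genes ELOVL6, a fatty acid elongase with 354 and 1368 counts, and FASN, the fatty acid synthase with 141711 and 248350 counts, had log2 ratios of 2.19 (2.02 to 2.36) and 1.05 (1.04 to 1.06). FGF21, a metabolic hormone, had 520 and 21 counts, a log2 ratio of -4.39 (-5.10 to -3.76). RGS16, a regulator of G protein signalling, had 16 counts in vehicle and 0 in (R)-9b, with a log2 interval that ended at -1.71, or at -0.53 with counts divided by 2. Members of this list thus lay beyond a ratio of 2 in each direction, as TXNIP and ARRDC4 did in the upward one.

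The MAX network, whose factors bind the same E-boxes and of which some pair with MLX, had 2 of 9 genes above 0 and 6 below 0, with a median of -0.27. MXD4 stood at 0.42 (0.38 to 0.46) and MAX at 0.18 (0.10 to 0.25). MXI1 had 4784 and 2078 counts and a log2 ratio of -0.97 (-1.04 to -0.89), and MYCL stood at -0.54 (-0.69 to -0.39). MYC, with 16191 and 13424 counts, had a log2 ratio of -0.03 (-0.07 to 0.00051).

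In a list of thioredoxin system genes with MAP3K5, DDIT4 and NLRP3, whose proteins bind thioredoxin or TXNIP, 7 of 14 genes were above 0 and 5 below 0, with a median of 0.04. Without these 3 genes, a count made after the values had been seen, 6 of 11 were above 0 and 3 below 0, with a median of 0.06. TXN, the thioredoxin that TXNIP binds, had 5638 and 5863 counts, a log2 ratio of 0.29 (0.24 to 0.35). TXNRD1, the cytosolic thioredoxin reductase, was at -0.46 (-0.49 to -0.43), TXNRD3 at 0.69 (0.56 to 0.81) and the peroxiredoxin gene PRDX1 at 0.62 (0.58 to 0.65). DDIT4, which encodes REDD1, a protein that forms a complex with TXNIP, had 21677 and 6956 counts and a log2 ratio of -1.40 (-1.44 to -1.36). NLRP3, an inflammasome sensor that TXNIP binds, had 24 and 2 counts, a log2 ratio of -3.35 (-6.47 to -1.34).

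Of the NEDD4-family ubiquitin ligases, the enzymes that alpha-arrestins recruit, 2 of 8 were above 0 and 4 below 0, with a median of -0.13. ITCH, a ligase of TXNIP itself, had 4632 and 2974 counts, a log2 ratio of -0.40 (-0.47 to -0.33). NEDD4 had 2122 and 660 counts, a log2 ratio of -1.45 (-1.58 to -1.32), and WWP2 stood at -0.44 (-0.49 to -0.39). WWP1 at 0.33 (0.28 to 0.38) and NEDD4L at 0.11 (0.09 to 0.14) were the ligases above 0.

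Among the subunits and upstream kinases of AMPK, the energy sensor that phosphorylates TXNIP, 1 of 8 was above 0 and 3 were below 0, with a median of -0.03. PRKAG2 stood at 0.62 (0.52 to 0.72), PRKAA2 at -0.72 (-0.91 to -0.53) and PRKAG1 at -0.20 (-0.25 to -0.14). Of 7 other genes with an arrestin fold, 3 were above 0 and 4 below 0, with a median of -0.21. The beta-arrestin genes ARRB1 and ARRB2 stood at 0.28 (0.20 to 0.35) and -0.43 (-0.51 to -0.36), the Rab exchange factor subunit RGP1 at -0.47 (-0.53 to -0.42), and the visual arrestin ARR3, with 2 and 16 counts, at 3.24 (1.15 to 6.40).

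**Figure D5:**
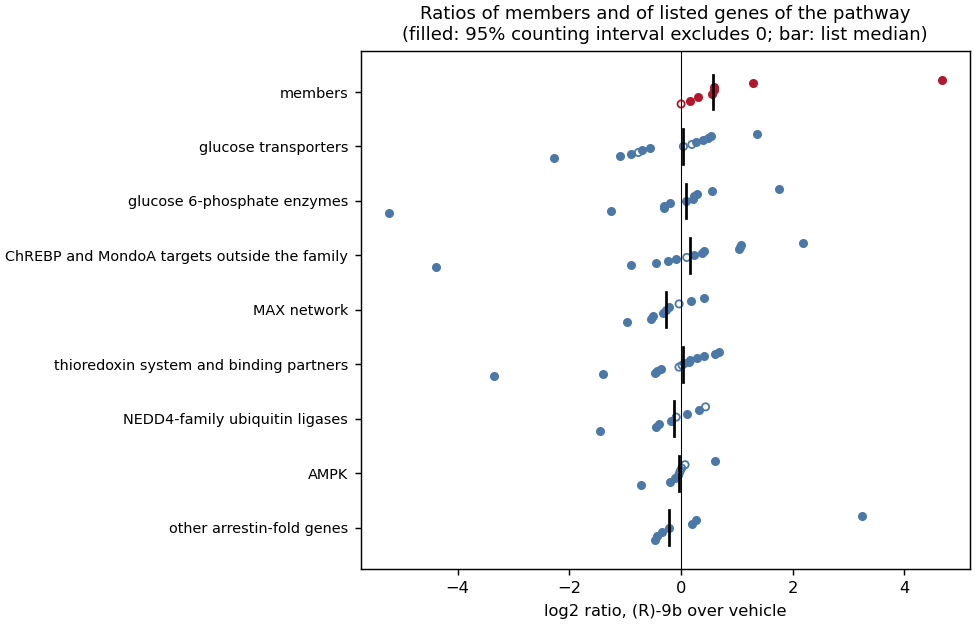
Log2 ratios of (R)-9b over vehicle for the members (red) and for the listed genes of each role (blue), 1 point per gene with at least 10 counts, filled where the 95% counting interval excludes 0, with a black bar at the median of each list. RGS16, at 0 counts in (R)-9b, is not drawn. The list medians other than that of the members lie between -0.27 and 0.17.

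The genes whose promoters hold 2 E-box forms spaced by 5 bases, as TXNIP does, were described in the same way, a choice made after the promoters had been read. Of 12 such genes compared, TXNIP included, 4 were above 0 and 6 below 0, with a median log2 ratio of -0.08. TXNIP had the largest ratio, which was known before the set was formed. HES1, a transcriptional repressor of the Notch pathway, followed with 1040 and 1802 counts and a log2 ratio of 1.03 (0.92 to 1.14). Of the 12714 genes compared that have a window in the table, 34.5% were above 0 and 37.0% below 0. Of the 1529 with CACGTG, 505 were above 0 and 642 below 0.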

How the data were processed

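RNA sequencing of C4-2B cells treated with vehicle or (R)-9b, 1 library each, was analysed, and groups came from the treatment labels. The authors aligned the read pairs to GRCh38 using STAR, and deposited whole-number gene counts of uniquely aligned unambiguous reads. The submitters' processing notes name STAR 2.5.1a, featureCounts 1.4.6-p5 and Salmon 0.8.2, and the paper's methods name another STAR version. The strand setting is not given in the sources used here. The authors also deposited CPM (count over library total), moderated log2 CPM and, per transcript, estimated counts with CPM, from a tool not stated for that table, whose CPM columns sum to 829749 and 845418. A moderated transcript table was not used.

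In all, 200 repeated gene lines were dropped, and no columns of other samples were present. Counts were scaled with TMM on all genes (edgeR 4.0.16, R 4.3.3), with factors of 1.02 for vehicle and 0.979 for (R)-9b. Exact 95% intervals were obtained in scipy 1.17.1 (Python 3.11.15, pandas 2.3.3, numpy 2.4.6) for genes whose counts in the 2 libraries summed to 10 or more, and figures were drawn with matplotlib 3.10.9. Estimated counts were rounded for these intervals and scaled with the same factors. Exon lengths and overlaps came from GENCODE 29 on the same assembly. No test was run, because 1 library per condition gives no spread. Depth was 65207444 and 57653965 counts.

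The members and lists were chosen with earlier results of these data known. The named genes are the members, the 2 genes with the largest rise and fall in each list by the interval end nearest 0, 10 genes with roles beside the family, the 5 protein-coding genes nearest TXNIP in ratio, and member transcripts with at least 10 estimated counts. Among the genes listed, ACPP and DSCR3 were found only under the newer symbols ACP3 and VPS26C. Alternatives were total-count, DESeq2 1.42.0, upper-quartile and non-mitochondrial TMM scaling, the deposited CPM, log2 and transcript values, 5 added counts, counts divided by 2, minimum counts of 1 and 50, a point-ratio rule, and assumed coefficients of variation of 0.1 and 0.3. Some genes that the rule and lists cover are not reported here. A planned comparison of member proteins was not run here.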

Additional observations from a re-analysis of the deposited data

How the results depend on the processing

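The log2 ratio of TXNIP ranged from 4.52 to 4.71 and that of ARRDC4 from 1.24 to 1.33 over 11 alternatives. Both kept an interval above 0 wherever an interval could be computed. Of these alternatives, counts divided by 2 and the assumed coefficients of variation change only the interval and leave the ratio as it was. Deposited CPM gives the same ratio as total-count scaling. The sign of ARRDC3 turned to -0.0570 with total-count scaling, with deposited CPM and with moderated log2 CPM, since scaling by total counts or by CPM lowers every ratio by the same amount. MLXIP was 0.247 and MLX 0.0946 with deposited CPM and with moderated log2 CPM. With an assumed coefficient of variation of 0.1 the intervals of MLXIP (0.307) and MLX (0.155) included 0, and with 0.3 so did those of ARRDC1 (0.593), ARRDC2 (0.560), MLXIPL (0.596), MLXIP and MLX, which left 2 members above 0. The number of members wholly above a ratio of 2 was 1 with the transcript counts and with either coefficient of variation. With the transcript counts, 3 glucose transporters, 1 gene of the MAX network, 3 AMPK genes and 0 of the antisense RNAs were above 0, and with total-count scaling 5 AMPK genes were below 0. Without MAP3K5, DDIT4 and NLRP3, an alternative added after seeing the data, 3 thioredoxin system genes were below 0. With TMM factors of the transcript table ARRDC2-203 was at -0.0160, ARRDC3-201 at -0.00353 and MLX-205 at -0.00771. The cause of the changes with the transcript counts was not tested. No paired analysis was possible because there was 1 library per condition, and for the same reason no library could be left out. Depth limits MLXIPL, ARRDC5 and the low genes of the lists, and (R)-9b at other doses or times was not analysed here.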
